A study of Homo sapiens with 24 samples.

Results

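The question taken up here is how the transcriptional response of HCT116 cells to hypoxia differed between cells that overexpressed ESR2, the gene of estrogen receptor beta, and parental cells, when no estradiol was given. The measure is a difference of differences, the change under hypoxia in ESR2 cells minus the change under hypoxia in parental cells, called the interaction below. It rests on 12 of the 24 arrays of the series, 3 in each of 4 of its 8 groups. Genes were then sorted by what became of their hypoxia response in ESR2 cells, and 1223 of the 18239 genes measured had such a response in at least 1 kind of cell.

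HCT116 is an established human colon cancer line, and total RNA was measured on Affymetrix 3′ expression arrays as RMA log2 signals. In hypoxic ESR2 cells and in normoxic ESR2 cells, full-length ESR2 cDNA with a HaloTag at its amino terminus had been brought in with the lentiviral vector pWPI-IRES-GFP-PGK-Puro, and the cells had been selected with puromycin. They were a pool of infected cells and not 1 clone, they also carried the vector's GFP and resistance genes. Hypoxic parental cells and normoxic parental cells are labelled WT, and whether they carried an empty vector is not stated in the labels, so effects of the vector and of ESR2 cannot be told apart. In the hypoxic groups the incubator was flushed with a mixture of nitrogen and CO2, and the length of the exposure, the oxygen level reached and the medium of the groups without estradiol were not given in the sources used here. The other 12 arrays hold the same 4 groups with 10 nM 17β-estradiol, a natural estrogen. Whether the 3 replicates of a group came from separate cultures is not stated in the labels. The p-values then measure only how far these arrays differ, which may be technical, and with 3 arrays in a group their precision is limited.

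Cells answer low oxygen mainly through the hypoxia-inducible factors (HIF). The prolyl hydroxylases EGLN1 to EGLN3 need oxygen to mark the HIF alpha subunits HIF1A and EPAS1 for destruction by the ubiquitin ligase of VHL, so in hypoxia the alpha subunits persist, pair with ARNT and bind promoters and enhancers that hold the core letters ACGTG. Their targets serve glucose uptake, glycolysis, blood vessel growth and the sparing of oxygen. Hypoxia also restrains protein synthesis, ribosome production and DNA replication, in part through mTORC1. Estrogen receptor beta is a ligand-activated transcription factor of the nuclear receptor family and the main estrogen receptor of the normal colon epithelium, whose level falls in many colorectal cancers.

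Array medians lay between 4.07 and 4.13. Replicate 2 of normoxic parental cells stood apart: its difference between the 3′ and 5′ probe sets of control transcripts, a measure that grows as labelled RNA gets shorter, was 4.34, against 2.00 to 3.10 on the other 11 arrays, and it correlated with its group at 0.991 to 0.993 across genes, against at least 0.996 within the other groups. Named genes whose call changed without this array, and list counts that changed by over 1.5 times, are given with that value below. Other changes in size are given only in part. Without this array 32 DNA replication genes had a positive interaction, against 23 with all arrays. The interaction of EGLN1 was then 0.03, against -0.11 with all arrays. Of 14 measured markers of a colorectal epithelial cancer line, 8 reached a group mean of 6 or more, with KRT19 highest at 11.6. These were EPCAM, KRT8, KRT18, KRT19, CDH1, CLDN4, CLDN7 and ELF3, which speak for epithelium and not for colon in particular. CLDN3 (at most 4.58), VIL1, LGALS4, CEACAM5, CEACAM6 and GPX2 stayed below 6. None of 10 fibroblast, 11 leukocyte and 6 embryonic kidney markers reached 6, and the highest of these, CD68, reached 5.92. The summed level of the colorectal markers was 94.3 to 95.0 in hypoxic ESR2 cells, 88.5 to 89.3 in normoxic ESR2 cells, 94.1 to 94.9 in hypoxic parental cells and 86.3 to 86.7 in normoxic parental cells.

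The transduced gene was checked first. By its brightest probe set ESR2 read 4.08, 3.96 and 4.17 in hypoxic ESR2 cells and 4.89, 4.03 and 4.63 in normoxic ESR2 cells, against 3.46, 3.31 and 3.53 in hypoxic parental cells and 3.35, 3.54 and 3.52 in normoxic parental cells. Every ESR2 array lay above every parental array. ESR2 was higher in ESR2 cells by 0.64 in hypoxia (adjusted p = 0.000411) and by 1.05 in normoxia (adjusted p = 6.44e-06), and its interaction of -0.41 did not pass (SE 0.19, limma, adjusted p = 0.107). That interaction depended on single arrays: it was -0.65 and called without replicate 2 of normoxic ESR2 cells (adjusted p = 0.000554) and -0.22 without replicate 1. It was also called with probe sets averaged (-0.32) and with array weights (-0.43), and of the other 7 probe sets of ESR2, 2 were called negative (-0.75 and -0.76). All these levels are low for the array, where RMA compresses changes, so the size of the overexpression cannot be read from them.

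In ESR2 cells hypoxia moved 5940 genes (32.6% of those tested), 2620 higher (14.4%) and 3320 lower (18.2%), and in parental cells 6844 genes (37.5%), 2983 higher (16.4%) and 3861 lower (21.2%; limma, adjusted p under 0.05). With a change of at least 2-fold as well, the counts were 225 higher (1.23%) and 93 lower (0.51%) in ESR2 cells, against 456 higher (2.5%) and 608 lower (3.33%) in parental cells. The interaction passed for 5597 genes, or 30.7%, of which 2987 (16.4%) were positive and 2610 (14.3%) negative. At 2-fold or more it was positive for 580 genes (3.18%) and negative for 307 (1.68%). A positive interaction means that the gene fell less or rose more in ESR2 cells, and a negative one that it rose less or fell more. The median interaction over all genes was -0.04. Each array measures a pool of cells, so a lower level in every cell and fewer cells with that level cannot be told apart.

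The sorting uses the calls of both responses and of the interaction, so class sizes are a description and no test. Of the 1223 responding genes, 494 (40.4%) kept the direction of the parental response at a smaller size in ESR2 cells, 352 (28.8%) lost it, 168 (13.7%) kept it with no call of the interaction, 81 (6.62%) reversed it, 73 (5.97%) had a larger response in ESR2 cells and 51 (4.17%) gained one that parental cells lacked. A further 4 fitted no class. Among lost responses, falls outnumbered rises by 241 to 111, and among reversed ones by 58 to 23. Among kept responses, rises outnumbered falls by 115 to 53. Genes nearest to the borders show how fine these are: NUDT7, which changed by 1.00 in parental cells, counted as a 2-fold response and PDSS1, at -1.0, just missed it. The interaction of NUDT7, -0.43, was not called, but was without replicate 2 of normoxic parental cells (-0.59), replicate 1 of hypoxic parental cells (-0.51) or replicate 2 of normoxic ESR2 cells (-0.51). CA12, with an interaction of -0.45 (adjusted p = 0.0498), was placed among the smaller responses, and UST, at -0.46 (adjusted p = 0.051), among the kept ones. CA12 lost its call when any of 9 of the 12 arrays was left out, down to -0.24 without replicate 3 of hypoxic ESR2 cells, and at -0.45 without replicate 2 of normoxic parental cells. UST gained one without any of 4 arrays, with -0.56 without replicate 2 of normoxic parental cells.

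**Figure D1:**
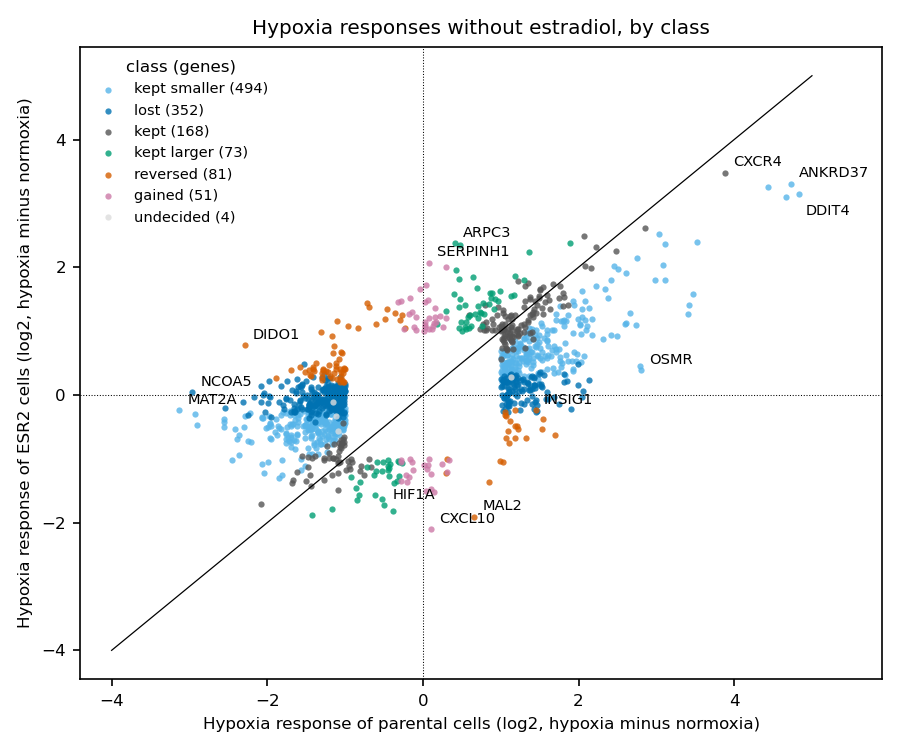
Hypoxia response of each gene in ESR2 cells (vertical axis) against that in parental cells (horizontal axis), both as log2 fold change, coloured by class; the diagonal marks equal responses. Lost genes lie along the horizontal line at 0, with medians of 0.10 in ESR2 cells and 1.22 in parental cells for the 111 rises and -0.06 and -1.22 for the 241 falls.

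Most lost responses were of genes that fell in hypoxic parental cells and had no call in ESR2 cells. Their median change was -0.06 in ESR2 cells and -1.22 in parental cells. NCOA5, a coactivator that binds estrogen receptors and other nuclear receptors, read 7.31, 7.35 and 7.38 in hypoxic ESR2 cells and 7.30, 7.22 and 7.37 in normoxic ESR2 cells, against 4.51, 4.26 and 4.11 in hypoxic parental cells and 7.25, 7.34 and 7.20 in normoxic parental cells. The 3 hypoxic parental arrays lay far below all others, and the remaining groups overlapped. NCOA5 fell 7.83-fold in parental cells and changed by 0.05 in ESR2 cells, an interaction of 3.02 (SE 0.14, limma, adjusted p = 1.16e-12). Of its 2 probe sets, 1 had this interaction, and their average gave 1.71. For 35 of the 122 named genes with a called interaction, averaging all probe sets in place of taking the brightest shrank the value by over 1.5 times, and 31 of the 35 were then still called.

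SFPQ, an RNA-binding protein needed to build nuclear paraspeckles, read 11.02, 10.99 and 10.95 in hypoxic ESR2 cells and 11.05, 11.04 and 10.97 in normoxic ESR2 cells, against 8.88, 8.78 and 8.77 in hypoxic parental cells and 11.02, 11.01 and 10.91 in normoxic parental cells. The hypoxic parental arrays again lay below all others. Its interaction was 2.14 (SE 0.08, adjusted p = 1.4e-14), the change being -0.03 in ESR2 cells and -2.17 in parental cells. WDR73, a WD repeat protein, changed by -0.20 in ESR2 cells and -2.55 in parental cells. CEBPA, a transcription factor of differentiation, changed by 0.14 and -2.09 in the same order, and replicate 2 of normoxic parental cells, at 7.08, lay about 1 log2 unit above its group; without that array the interaction was 1.88 in place of 2.23. RDH10, which oxidises retinol on the way to retinoic acid, had an interaction of 2.21, with 0.23 in ESR2 cells and -1.98 in parental cells. It was also -0.47 different between ESR2 and parental cells in normoxia (adjusted p = 0.000847).

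Other lost falls belonged to varied processes. RRS1, a factor of large ribosomal subunit assembly, changed by 0.00 in ESR2 cells and -2.05 in parental cells. DDX5, an RNA helicase and nuclear receptor coactivator, changed by -0.07 in ESR2 cells and -1.48 in parental cells. The cyclins CCNE1 and CCNE2, which drive entry into S phase, had interactions of 1.31 and 1.86. DNAJA1, a co-chaperone of HSP70, ID3, an inhibitor of basic helix-loop-helix factors, SRXN1, which repairs oxidised peroxiredoxins, and SLC7A5, an amino acid transporter, had interactions of 1.22, 1.39, 1.19 and 1.06. All of these fell in parental cells and had no call in ESR2 cells. For SLC7A5, 1 of 2 probe sets had a called interaction, and their average gave 0.40.

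Rises that were lost were fewer. TRIOBP, an actin-bundling protein, read 5.29, 5.52 and 5.66 in hypoxic ESR2 cells and 5.68, 5.77 and 5.66 in normoxic ESR2 cells, against 7.85, 8.18 and 7.71 in hypoxic parental cells and 5.96, 6.10 and 5.98 in normoxic parental cells. Only the hypoxic parental arrays were raised. Its interaction was -2.11 (SE 0.19, adjusted p = 9.24e-09), but of its 3 probe sets 1 was called the other way, and their average gave -0.57. SYT1, a calcium sensor of vesicle release, and TMEFF1, a transmembrane protein with follistatin domains, had interactions of -1.73 and -1.71 with no call in ESR2 cells. MSMO1, an enzyme of cholesterol synthesis, read 9.83, 9.73 and 9.62 in hypoxic ESR2 cells and 9.93, 9.84 and 9.83 in normoxic ESR2 cells, against 11.11, 11.17 and 11.14 in hypoxic parental cells and 9.91, 9.75 and 9.84 in normoxic parental cells. Its interaction was -1.44 (SE 0.08, adjusted p = 2.31e-11), shared by all 4 of its probe sets.

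TRIM2, a ubiquitin ligase, came to the same class in another way. It read 7.16, 7.16 and 6.70 in hypoxic ESR2 cells and 7.41, 7.38 and 6.99 in normoxic ESR2 cells, against 6.85, 7.04 and 7.08 in hypoxic parental cells and 5.59, 5.34 and 5.64 in normoxic parental cells. Here normoxic parental cells were the group that stood apart, at the bottom, and in hypoxia both kinds of cell overlapped. ESR2 cells were higher by 1.74 in normoxia (adjusted p = 3.12e-09), and the interaction was -1.72. CALD1, which binds actin and myosin, was also higher in normoxic ESR2 cells, by 0.70. Its interaction of -1.32 was larger than this gap, so normoxia gave only part of it.

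**Figure D2:**
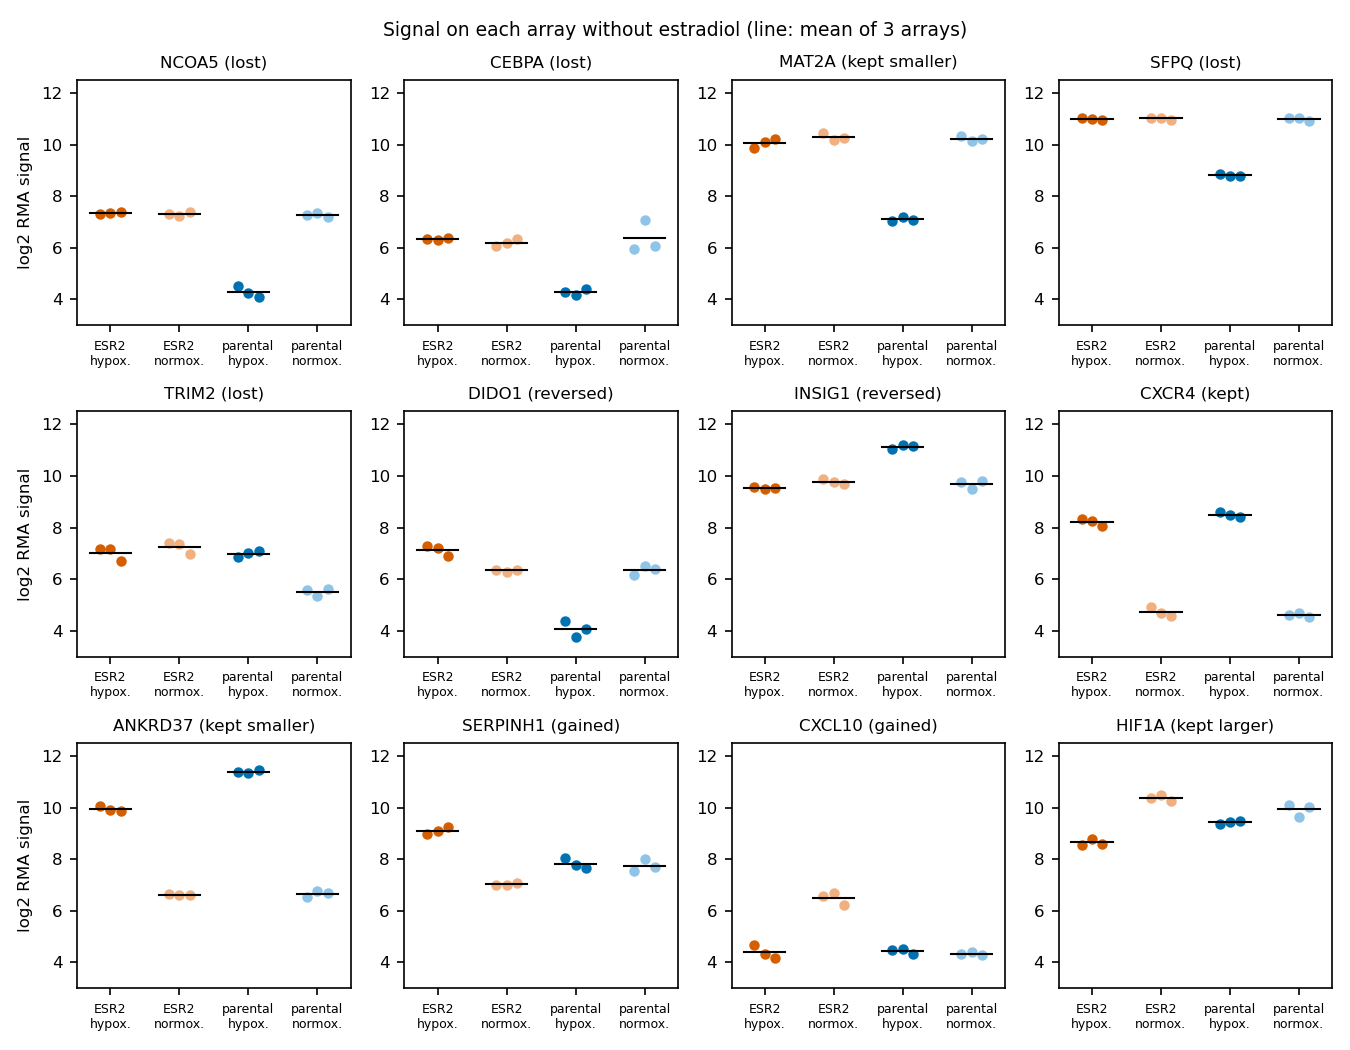
Log2 signal on each of the 12 arrays (points; lines are means of 3 arrays) for genes of the different classes, with hypoxic and normoxic ESR2 cells left and hypoxic and normoxic parental cells right in each panel. In NCOA5 the hypoxic parental arrays (4.11 to 4.51) lie below every other array, and in HIF1A the hypoxic ESR2 arrays do (8.56 to 8.79).

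That gap between the cells can lie in hypoxia or in normoxia, and the same interaction can come from either. Among lost falls the gap was larger in hypoxia for 222 of 241 genes, and 232 were higher in hypoxic ESR2 cells than in hypoxic parental cells (20.4% of all genes were). Among lost rises it was larger in hypoxia for 84 of 111 and in normoxia for 27, and 46 were already higher in normoxic ESR2 cells, against 9.76% of all genes. Reversed genes had the larger gap in hypoxia in 75 of 81 cases, smaller responses in 397 of 494 and gained ones in 41 of 51. The interaction subtracts the normoxia gap from the hypoxia gap, so these counts place it and do not test it.

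Reversed genes moved in opposite directions in the 2 kinds of cell. DLX2, a homeobox transcription factor, read 6.87, 6.52 and 6.40 in hypoxic ESR2 cells and 5.56, 5.26 and 5.47 in normoxic ESR2 cells, against 4.68, 4.08 and 4.59 in hypoxic parental cells and 5.46, 5.78 and 5.43 in normoxic parental cells. The normoxic groups overlapped, and hypoxic arrays lay above them in ESR2 cells and below them in parental cells. DLX2 rose by 1.17 in ESR2 cells and fell by 1.11 in parental cells on the log2 scale, an interaction of 2.27 (SE 0.23, limma, adjusted p = 6.12e-08). DIDO1, a chromatin reader with a PHD finger, had the largest positive interaction of the genes named by rule, 3.08 (SE 0.18), but this was the value of 1 of its 6 probe sets. One other was called, in the opposite direction, and the average of the 6 gave 0.36. The average for DLX2 was 0.75. CCDC71 had an interaction of 2.29. UNG, the uracil-DNA glycosylase of base excision repair, rose by 1.44 in ESR2 cells and changed by -0.72 in parental cells.

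SRSF5, a splicing factor of the SR family, read 9.70, 9.71 and 9.69 in hypoxic ESR2 cells and 9.30, 9.25 and 9.22 in normoxic ESR2 cells, against 8.03, 7.97 and 8.10 in hypoxic parental cells and 9.62, 9.40 and 9.33 in normoxic parental cells. The hypoxic groups lay on either side of the normoxic ones. Its interaction was 1.86 (SE 0.11, adjusted p = 2.13e-11), called the same way by 8 of 11 probe sets and the other way by 1. CDC25A, the phosphatase that activates CDK2, rose by 0.43 in ESR2 cells and changed by -1.58 in parental cells. IL17RB, a receptor for interleukin 25, changed by 0.38 and -1.69 in that order, and KLF10, an early response gene of TGF-beta, by 1.05 and -0.23.

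The reversed rises include a pair of genes that were much higher in ESR2 cells before hypoxia. MAL2, a membrane protein of transcytosis in epithelia, read 5.99, 5.98 and 5.29 in hypoxic ESR2 cells and 7.62, 7.96 and 7.40 in normoxic ESR2 cells, against 4.40, 4.80 and 4.93 in hypoxic parental cells and 4.04, 3.88 and 4.24 in normoxic parental cells. All ESR2 arrays lay above all parental arrays, and hypoxia brought the cells closer. The interaction was -2.57 (SE 0.23, adjusted p = 1.62e-08), and the gap in normoxia was 3.61. The average of its probe sets gave an interaction of -1.67. GASK1B, a Golgi protein, followed the same course, with a gap of 3.46 in normoxia and an interaction of -2.08 (-1.19 with probe sets averaged). LCORL, related to a ligand-dependent nuclear receptor corepressor, was different, since its gap lay in hypoxia: it read 5.64, 5.57 and 5.57 in hypoxic ESR2 cells and 6.35, 6.13 and 6.19 in normoxic ESR2 cells, against 8.53, 8.52 and 8.60 in hypoxic parental cells and 6.94, 6.71 and 6.89 in normoxic parental cells. No groups of LCORL overlapped, and the interaction was -2.33 (SE 0.15). SDHAF4, an assembly factor of respiratory complex II, had -2.06, ZNF226, a zinc finger protein with 1 of 4 probe sets called the other way, -2.20, and INSIG1, which retains the sterol sensor in the endoplasmic reticulum, -1.69. With probe sets averaged ZNF226 had -0.81.

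The largest class kept the direction of the response and lost part of its size. The 221 rises of this class had a median change of 0.67 in ESR2 cells and 1.44 in parental cells, and the 273 falls -0.46 and -1.35. MAT2A, which makes the methyl donor S-adenosylmethionine, read 9.87, 10.11 and 10.20 in hypoxic ESR2 cells and 10.47, 10.16 and 10.26 in normoxic ESR2 cells, against 7.04, 7.18 and 7.08 in hypoxic parental cells and 10.33, 10.14 and 10.23 in normoxic parental cells. The hypoxic parental arrays lay about 3 log2 units below the rest, and the hypoxic and normoxic ESR2 arrays overlapped. MAT2A fell 8.77-fold in parental cells and 1.18-fold in ESR2 cells, an interaction of 2.90 (SE 0.13, adjusted p = 4.36e-13), called the same way by 5 of 6 probe sets, with 1.76 for their average. SLC35G1, a membrane protein of solute carrier family 35, had an interaction of 2.63, FSAF1, a factor of small ribosomal subunit assembly, 2.43, and TOE1, a nuclease that trims small nuclear RNAs, 2.18.

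Among the rises of smaller size were HIF targets with large changes. ANKRD37 read 10.05, 9.91 and 9.86 in hypoxic ESR2 cells and 6.64, 6.61 and 6.63 in normoxic ESR2 cells, against 11.37, 11.33 and 11.45 in hypoxic parental cells and 6.53, 6.77 and 6.68 in normoxic parental cells. The normoxic groups overlapped, and hypoxic ESR2 arrays lay below hypoxic parental arrays and far above both. ANKRD37 rose 9.91-fold in ESR2 cells and 26.5-fold in parental cells, an interaction of -1.42 (SE 0.12, adjusted p = 2.83e-09). DDIT4, the inhibitor of mTORC1 also known as REDD1, read 11.29, 11.15 and 11.13 in hypoxic ESR2 cells and 8.20, 7.97 and 7.98 in normoxic ESR2 cells, against 12.03, 11.98 and 12.02 in hypoxic parental cells and 7.34, 6.72 and 7.46 in normoxic parental cells. Both gaps were called: ESR2 cells minus parental cells gave -0.82 in hypoxia and 0.87 in normoxia, so the interaction of -1.69 drew on both sides. Without replicate 2 of normoxic parental cells, the lowest of its group at 6.72, that interaction was -1.46.

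OSMR, a subunit of the oncostatin M receptor, read 5.78, 5.70 and 5.57 in hypoxic ESR2 cells and 5.38, 5.18 and 5.32 in normoxic ESR2 cells, against 8.06, 8.34 and 8.24 in hypoxic parental cells and 5.31, 5.48 and 5.44 in normoxic parental cells. Only the hypoxic parental arrays stood high, and the normoxic groups overlapped. The rise was 1.31-fold in ESR2 cells and 6.96-fold in parental cells, with an interaction of -2.41 (SE 0.13). Its probe sets were divided, since of 5 only 1 other was called and went the opposite way, and their average gave -0.28. KLF9, a transcription factor of the Krüppel-like family, and RSRP1, a protein rich in arginine and serine, had interactions of -2.35 and -2.13. CCNG2, an atypical cyclin that restrains the cell cycle, rose 2.64-fold in ESR2 cells and 10.7-fold in parental cells. COL13A1, a transmembrane collagen, and PLAUR, the urokinase receptor, had interactions of -1.89 and -1.57.

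The promoters of 4 genes are printed to show the core letters to which HIF can bind, for the 2 smaller rises just described, a kept one (EGLN1) and a lost fall (NCOA5). They are RefSeq sequences of GRCh38.p14, 250 bases before to 50 after the gene's start, 5′ to 3′ on the gene's strand, with every ACGTG on either strand in capitals. ANKRD37 lies at chr4:185396591-185396890 (+), DDIT4 at chr10:72273674-72273973 (+), EGLN1 at chr1:231422238-231422537 (-) and NCOA5 at chr20:46089913-46090212 (-).
ANKRD37: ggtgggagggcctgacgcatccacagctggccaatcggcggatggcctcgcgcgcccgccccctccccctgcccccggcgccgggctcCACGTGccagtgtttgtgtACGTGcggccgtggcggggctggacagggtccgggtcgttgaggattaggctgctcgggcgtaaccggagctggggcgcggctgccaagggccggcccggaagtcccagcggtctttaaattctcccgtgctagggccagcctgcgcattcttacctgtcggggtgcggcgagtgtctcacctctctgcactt
DDIT4: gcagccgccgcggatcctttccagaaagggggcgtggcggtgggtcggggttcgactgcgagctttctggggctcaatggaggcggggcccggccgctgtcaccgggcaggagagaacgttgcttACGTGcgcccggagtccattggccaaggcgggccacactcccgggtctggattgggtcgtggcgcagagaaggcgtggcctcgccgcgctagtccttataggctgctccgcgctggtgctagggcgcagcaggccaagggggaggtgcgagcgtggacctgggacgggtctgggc
EGLN1: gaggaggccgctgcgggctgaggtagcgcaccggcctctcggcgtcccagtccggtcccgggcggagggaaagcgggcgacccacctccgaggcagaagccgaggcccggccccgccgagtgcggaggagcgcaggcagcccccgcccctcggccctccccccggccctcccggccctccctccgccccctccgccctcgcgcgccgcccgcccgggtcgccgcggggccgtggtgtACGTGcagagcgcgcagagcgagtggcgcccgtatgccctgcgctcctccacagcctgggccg
NCOA5: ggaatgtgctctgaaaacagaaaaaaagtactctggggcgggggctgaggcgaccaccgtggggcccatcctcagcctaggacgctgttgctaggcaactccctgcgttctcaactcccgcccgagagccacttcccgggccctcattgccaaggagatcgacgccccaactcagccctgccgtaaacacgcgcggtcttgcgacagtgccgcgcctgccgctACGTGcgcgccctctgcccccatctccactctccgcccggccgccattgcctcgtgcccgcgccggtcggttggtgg
ANKRD37 holds 3 matches, 2 of which are the 2 strands of 1 palindromic CACGTG, and the others hold 1 each. The motifs searched on both strands were the hypoxia core ACGTG, the E-box CACGTG (which contains that core) and the estrogen response element, GGTCA followed after 3 bases of any kind by TGACC. The letters GGTCA alone were searched too. Of 27305 promoters of that length in the table, 21.6% hold ACGTG, 7.43% CACGTG and 18 in all the estrogen response element. Of the 18239 genes measured 14484 matched a promoter, a little under 80%, and 23.9% of these hold ACGTG and 8.81% CACGTG. Of the 1223 responding genes, 1026 matched a promoter, and 28.6% of these hold ACGTG, 12.3% CACGTG and 0 the estrogen response element. GGTCA alone is in 35.3% of matched genes measured and 33.5% of matched responding genes. By class, ACGTG was in 22.6% of lost falls (195 of 241 matched), 30.6% of lost rises (98 of 111), 31.3% of smaller falls (233 of 273) and 29.1% of smaller rises (182 of 221). It was in 37.8% of larger rises (37 of 44), 28.0% of larger falls (25 of 29), 29.4% of reversed falls (51 of 58), 28.6% of reversed rises (21 of 23), 27.6% of gained rises (29 of 30) and 19.0% of gained falls (21 of 21). For the kept class fewer than 80% of genes matched, so its share is not given. The share over all genes measured, with a match a little under 80%, carries the same limit. A match is a string of letters in this window and not a measured site.

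Kept responses, those with no call of the interaction, were led by known targets of hypoxia. CXCR4, a chemokine receptor, read 8.34, 8.25 and 8.05 in hypoxic ESR2 cells and 4.94, 4.69 and 4.57 in normoxic ESR2 cells, against 8.60, 8.49 and 8.41 in hypoxic parental cells and 4.63, 4.69 and 4.53 in normoxic parental cells. The hypoxic ESR2 arrays lay just below the hypoxic parental ones, and the normoxic groups overlapped. CXCR4 rose 11.2-fold in ESR2 cells and 14.8-fold in parental cells, and the interaction of -0.40 (SE 0.15, adjusted p = 0.0524) missed the threshold narrowly and passed it under 10 other settings, 4 of them the loss of 1 array (-0.44 without replicate 2 of normoxic parental cells). SLC2A1, the glucose transporter GLUT1, rose 6.12-fold in ESR2 cells and 7.21-fold in parental cells, and PLEKHA2, a phosphoinositide-binding adaptor, 4.76-fold and 5.59-fold. WFDC3, with a WAP domain, had an interaction of 0.42 that did not pass. Among the falls were SLC5A5, the sodium iodide symporter (-1.38 in ESR2 cells, -1.69 in parental cells), SNHG9, a host of small nucleolar RNA (-1.33 and -1.67), and UTP15, of the small subunit processome (-1.20 and -1.62). UTP15 was kept by its brightest probe set alone: the other 2 of 3 were called with a positive interaction (1.41 and 0.72), their average gave 0.85, and the brightest itself was called without replicate 2 of normoxic parental cells (0.59). LARP1B, an RNA-binding protein, changed by -1.35 and -1.50, though 2 of its 6 probe sets were called with a negative interaction. A missed threshold does not show that responses were alike: for SLC2A1 the interaction was -0.24 with an SE of 0.12, and for WFDC3 0.42 with 0.19. SLC2A1 was called without replicate 2 of normoxic ESR2 cells (-0.35). WFDC3 was called without replicate 1 of normoxic parental cells or replicate 3 of normoxic ESR2 cells (0.56 each), and SNHG9 without any of 3 arrays (0.41 to 0.43). Without replicate 2 of normoxic parental cells SNHG9, SLC5A5 and PLEKHA2 had interactions of 0.16, 0.11 and -0.12. With all arrays these were 0.34, 0.30 and -0.23.

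Larger responses in ESR2 cells included the transcript of the hypoxia factor itself. HIF1A read 8.56, 8.79 and 8.60 in hypoxic ESR2 cells and 10.39, 10.47 and 10.27 in normoxic ESR2 cells, against 9.36, 9.45 and 9.47 in hypoxic parental cells and 10.11, 9.65 and 10.03 in normoxic parental cells. No groups overlapped, with normoxic ESR2 cells highest and hypoxic ESR2 cells lowest. The transcript fell 3.3-fold in ESR2 cells and 1.41-fold in parental cells, an interaction of -1.22 (SE 0.13, limma, adjusted p = 1.15e-07) that all 8 probe sets shared; without replicate 2 of normoxic parental cells it was -1.08. HIF activity is controlled mainly at the protein level, which was not measured. FBXO4, an F-box protein, CALML4, a calmodulin-like protein, and IFIT2, an interferon-induced gene, also fell further in ESR2 cells, with interactions of -1.10, -1.02 and -1.43. FBXO4 had 1 of 3 probe sets called and CALML4 1 of 4, and averages of their probe sets gave -0.31 and -0.42.

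ARPC3, a subunit of the Arp2/3 complex that branches actin filaments, read 10.54, 10.41 and 10.56 in hypoxic ESR2 cells and 8.20, 8.19 and 7.97 in normoxic ESR2 cells, against 8.26, 8.02 and 8.09 in hypoxic parental cells and 7.48, 7.94 and 7.73 in normoxic parental cells. The hypoxic ESR2 arrays lay more than 2 log2 units above all others. Its rise was 5.22-fold in ESR2 cells and 1.33-fold in parental cells, an interaction of 1.98 (SE 0.17, adjusted p = 6.07e-09). CCN1, a matricellular protein, gave 0.77 in hypoxia and -1.10 in normoxia for ESR2 cells minus parental cells, with an interaction of 1.88. HAS3, which makes hyaluronan, SMAD6, an inhibitor of BMP signalling, RET, a receptor tyrosine kinase, and PDIA3, a disulfide isomerase of the endoplasmic reticulum, had interactions of 1.53, 1.21, 1.35 and 1.03. For HAS3, 1 of 4 probe sets was called the other way, and their average gave 0.24. SMAD6 and RET had 1 of 3 probe sets called and PDIA3 1 of 2. Averages of all their probe sets gave 0.39, 0.45 and 0.43.

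Gained responses appeared in ESR2 cells alone by the calls. SERPINH1, the collagen chaperone HSP47, read 8.98, 9.07 and 9.23 in hypoxic ESR2 cells and 6.99, 6.99 and 7.08 in normoxic ESR2 cells, against 8.05, 7.79 and 7.65 in hypoxic parental cells and 7.55, 8.0 and 7.71 in normoxic parental cells. Parental groups overlapped, hypoxic ESR2 arrays lay above them and normoxic ESR2 arrays below. The interaction was 2.00 (SE 0.16, adjusted p = 3.37e-09), shared by all 3 probe sets. CCN2, a relative of CCN1, GJB2, the gap junction protein connexin 26, and PRAME, a repressor of retinoic acid receptor signalling, had interactions of 1.76, 1.78 and 1.45.

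CXCL10, a chemokine induced by interferon, read 4.69, 4.35 and 4.16 in hypoxic ESR2 cells and 6.57, 6.71 and 6.24 in normoxic ESR2 cells, against 4.48, 4.51 and 4.33 in hypoxic parental cells and 4.32, 4.42 and 4.27 in normoxic parental cells. Normoxic ESR2 arrays lay well above all others, which overlapped. Its interaction was -2.21 (SE 0.19, adjusted p = 6.03e-09) on 1 probe set, and the gap in normoxia was 2.17 (adjusted p = 9.56e-11). Of the 21 gained falls, 13 were already higher in normoxic ESR2 cells. EEA1, a tether of early endosomes, was another, with a gap of 1.05 and an interaction of -1.54. MTHFD2L, a mitochondrial enzyme of folate metabolism, had no such gap (0.01) and an interaction of -1.67. UHMK1, a protein kinase, had an interaction of -1.58 with an SE of 0.40, its normoxic arrays spreading over more than 1 log2 unit in both kinds of cell. The interaction was called by 2 of 3 probe sets of EEA1, 2 of 4 of MTHFD2L and 1 of 2 of UHMK1. Averages of all their probe sets gave -0.81, -0.89 and -0.87.

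Lists of genes by function are described by their counts and medians beside those of all genes, where 16.4% had a positive and 14.3% a negative interaction and the median was -0.04. Of 18 genes of the oxygen-sensing system, 6 had a positive and 1, HIF1A, a negative interaction (median 0.05). HIF1AN, the asparagine hydroxylase that blocks HIF activation, rose by 0.46 in ESR2 cells and changed by -0.60 in parental cells, with an interaction of 1.06 on all 3 probe sets. EP300, a coactivator of HIF and of estrogen receptors, moved in opposite directions too (0.78 in ESR2 cells, -0.87 in parental cells, interaction 1.65). VHL had an interaction of 0.74 (adjusted p = 0.0155), which was not called without replicate 1 of normoxic parental cells (0.55). Without replicate 2 of these cells it was 1.03. EPAS1, the other alpha subunit, rose in both (0.81 and 0.90) with an interaction of -0.10, and ARNT had one of 0.28. The hydroxylases EGLN1 and EGLN3, HIF targets that limit HIF, rose 2.47-fold and 2.05-fold in ESR2 cells and 2.66-fold and 2.04-fold in parental cells, with interactions of -0.11 and 0.00. None of these 4 interactions was called at the brightest probe set. The other 2 of 3 probe sets of EGLN1 were called negative (-0.37 and -0.61), their average gave -0.36 (adjusted p = 0.00223), and ARNT was called without any of 4 arrays (0.35 without replicate 2 of normoxic parental cells).

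Of 43 HIF targets outside glycolysis, 23 had a negative and 5 a positive interaction (median -0.42), and in both kinds of cell 37 of the 43 rose. The median change was 1.26 in ESR2 cells and 1.72 in parental cells. HILPDA, which blocks the breakdown of lipid droplets, read 8.59, 8.40 and 8.49 in hypoxic ESR2 cells and 7.43, 7.25 and 7.49 in normoxic ESR2 cells, against 10.12, 10.10 and 10.13 in hypoxic parental cells and 7.22, 7.55 and 7.35 in normoxic parental cells. The hypoxic ESR2 arrays lay between the normoxic and the hypoxic parental ones. Its rise was 2.15-fold in ESR2 cells and 6.69-fold in parental cells (interaction -1.64, SE 0.12). MXI1, an antagonist of MYC, had an interaction of -1.23, and BNIP3L, a mitophagy receptor, one of -1.18. All 6 probe sets of BNIP3L were called, but only 2 of 5 of MXI1, whose average gave -0.56.

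Of 22 genes of glucose uptake and glycolysis, 8 had a negative interaction and 0 a positive one, with median changes of 0.83 in ESR2 cells and 0.81 in parental cells. The 3 with the smallest p-values were GBE1, which branches glycogen (-0.83), ALDOC, an aldolase (-0.54), and PDK1, which shuts pyruvate out of the mitochondrion (-0.71). PDK1 was not called when its probe sets were averaged (-0.35). The positive count of the list was 2 without replicate 3 of normoxic parental cells, and 1 without replicate 1 of hypoxic parental cells or replicate 3 of hypoxic ESR2 cells. Of 36 autophagy genes, 7 had a positive and 8 a negative interaction. SQSTM1, a cargo receptor, had 0.84 and ATG4B, a protease that processes ATG8 proteins, 0.92. Of 23 inhibitors and sensors of mTORC1, 7 were positive and 6 negative. FLCN, which acts on the Rag GTPases, had 1.09, but its 2 probe sets were called in opposite directions.

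Of 46 ribosome biogenesis genes, 30 had a positive and 0 a negative interaction (median 0.59). Leaving out any of 4 arrays gave 1 negative. On the arrays with estradiol 13 were positive and 8 negative, with a median of 0.02. Their median change was -0.29 in ESR2 cells and -0.79 in parental cells, and 27 fell in ESR2 cells against 43 in parental cells. POP1, a subunit of RNase P and RNase MRP, read 8.15, 8.09 and 8.17 in hypoxic ESR2 cells and 8.67, 8.62 and 8.69 in normoxic ESR2 cells, against 6.43, 6.42 and 6.56 in hypoxic parental cells and 8.96, 8.77 and 8.92 in normoxic parental cells (interaction 1.89, SE 0.11). No groups of POP1 overlapped, and the hypoxic parental arrays lay lowest by far. NOP2, a methyltransferase of ribosomal RNA, had 1.53. The ribosomal proteins themselves did not share this: of 64 measured, 1 was positive and 1 negative, with a median of -0.06. Those were RPL35A (0.29) and RPL27A (-0.45), and neither was called without replicate 2 of normoxic parental cells (0.21 and -0.36). RPL37, next by p-value, had -0.18 (adjusted p = 0.0621) and was called without replicate 3 of hypoxic ESR2 cells (-0.22). RPL35A also lost its call without replicate 1 of normoxic ESR2 cells (0.25), and RPL27A without any of 8 arrays. The positive count was 0 without replicate 2 of normoxic parental cells or replicate 1 of normoxic ESR2 cells. The negative count ranged between 0 and 3 when 1 array was left out.

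Of 10 paraspeckle genes, 6 were positive and 2 negative (median 0.32), with 1 negative when any of 5 arrays was left out, replicate 2 of normoxic parental cells among them. PSPC1, a partner of SFPQ, changed by -0.50 in ESR2 cells and -2.55 in parental cells, though 1 of its 5 probe sets carried the call. The average of its probe sets gave an interaction of 0.59. CPSF6, which selects polyadenylation sites, had an interaction of 1.07. Of 40 splicing genes, 12 were positive and 10 negative (median 0.09), so that SRSF5, LUC7L (1.46) and RBM5 (1.41) had members such as RSRP1 opposite them. Of 36 translation initiation factors, 8 were positive and 3 negative. EIF5, which helps select the start codon, fell 2.03-fold in ESR2 cells and 5.48-fold in parental cells (1.44), and the subunits EIF2B4 and EIF2B1 of the exchange factor for eIF2 had 0.72 and 0.49. Of 21 genes of S-adenosylmethionine and polyamine metabolism, 6 were positive and 4 negative, or 2 without replicate 1 of normoxic or of hypoxic ESR2 cells. SAT1, which starts polyamine breakdown, rose 1.29-fold in ESR2 cells and 3.82-fold in parental cells (-1.56). MTRR, which reactivates methionine synthase, had 0.98.

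Cell cycle genes were divided. Of 51 DNA replication genes, 23 were positive and 4 negative (median 0.27), with 21 falling in ESR2 cells against 35 in parental cells. GINS4 and GINS3, of the replicative helicase, and ORC5, of the origin recognition complex, had interactions of 1.47, 1.06 and 1.09. With probe sets averaged GINS4 had 0.92. Of 20 genes of G1 and S phase entry, 8 were positive and 4 negative. CCNE2 read 8.67, 8.44 and 8.54 in hypoxic ESR2 cells and 8.39, 8.33 and 8.20 in normoxic ESR2 cells, against 6.25, 6.60 and 6.50 in hypoxic parental cells and 8.34, 7.65 and 8.21 in normoxic parental cells, so that the hypoxic parental arrays stood alone. Of 49 mitosis genes, 13 were positive and 10 negative. CCNB1, which activates CDK1 at mitosis, had 0.80, while the condensin subunits NCAPH and SMC2 had 0.59 and -1.30. For NCAPH 1 of 3 probe sets was called, and their average gave 0.33. Of 28 genes of homologous recombination, 8 were positive and 3 negative. EXO1, which resects DNA ends, and BARD1, the partner of BRCA1, had 0.69 and 0.88, and RAD50, of the end-binding complex, -0.96.

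Stress programmes were mixed. Of 28 p53 targets, 5 were positive and 9 negative. AEN, an apoptosis-enhancing nuclease, had 1.32, and GADD45A, a damage-induced growth inhibitor, -0.93. TP53I3, an oxidoreductase, was higher in ESR2 cells throughout: it read 8.27, 8.07 and 8.21 in hypoxic ESR2 cells and 7.37, 7.16 and 7.39 in normoxic ESR2 cells, against 5.28, 5.28 and 5.27 in hypoxic parental cells and 5.75, 6.16 and 6.15 in normoxic parental cells. It rose in ESR2 cells by 0.88 and changed in parental cells by -0.74. Of 30 ATF4 and amino acid stress genes, 12 were positive and 6 negative. SLC3A2, the partner chain of SLC7A5, had 1.14, TRIB3, a pseudokinase, 0.86, and SESN2, a leucine sensor, 0.83. TRIB3 and SESN2 each had 1 of 2 probe sets called, and averages of their probe sets gave 0.40 and 0.38. Of 24 heat shock genes, 10 were positive, among them DNAJB1, the main inducible HSP40 (1.06), and 2 negative. The negative count was 1 when any of 8 arrays was left out, replicate 2 of normoxic parental cells among them. Of 26 chaperones of the endoplasmic reticulum, 3 were positive and 8 negative. PDIA3 was among the positive ones, MANF, a secreted stress protein (-0.64), and DNAJB9, a co-chaperone of BiP (-1.15), among the negative. With probe sets averaged DNAJB9 had -0.62. Of 23 NRF2 genes, 4 were positive and 5 negative, and KEAP1, the inhibitor of NRF2, had 0.99 and malic enzyme ME1 -0.90.

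Cholesterol and interferon genes were weighted to the negative side. Of 20 cholesterol genes, 11 were negative and 2 positive (median -0.54), with 0 or 1 positive when any of 6 arrays was left out and 1 without replicate 2 of normoxic parental cells. Their median change was -0.21 in ESR2 cells and 0.26 in parental cells, and 1 rose in ESR2 cells against 11 in parental cells. HSD17B7, a ketosteroid reductase that acts on cholesterol precursors and on estrone, had -1.16. Of 36 interferon genes, 13 were negative and 3 positive (median -0.17). IFIT1 read 8.92, 8.78 and 8.56 in hypoxic ESR2 cells and 9.54, 9.51 and 9.50 in normoxic ESR2 cells, against 8.64, 8.72 and 8.79 in hypoxic parental cells and 8.43, 8.28 and 8.57 in normoxic parental cells. Normoxic ESR2 cells were the high group here, as for CXCL10 and IFIT2, and the gap in normoxia was 1.09 with an interaction of -1.05.

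Of 25 nuclear receptor coregulators, 10 had a positive and 0 a negative interaction (median 0.23), NCOA5, DDX5 and EP300 among them, and 3 fell in ESR2 cells against 11 in parental cells. Without replicate 3 of normoxic ESR2 cells 1 was negative. Of 28 estrogen response genes, known mainly from breast cells, 5 were positive (3 without replicate 1 of normoxic parental cells) and 6 negative. Of 36 early response and ERK feedback genes, 13 were positive and 6 negative. DUSP2, a phosphatase of ERK, fell 1.27-fold in ESR2 cells and 4.2-fold in parental cells (1.73). MYC, which drives ribosome production and growth, rose by 0.24 in ESR2 cells and 0.32 in parental cells, with an uncalled interaction of -0.08. Of 23 genes of ID proteins, BMP and TGF-beta feedback, 7 were positive and 4 negative. The negative count was 1 without replicate 2 of hypoxic parental cells or replicate 1 of normoxic ESR2 cells. It was 2 without replicate 3 of normoxic parental cells, replicate 3 of normoxic ESR2 cells or replicate 2 of hypoxic ESR2 cells. ID2, a relative of ID3, read 9.51, 9.28 and 9.10 in hypoxic ESR2 cells and 8.35, 8.41 and 8.45 in normoxic ESR2 cells, against 6.88, 6.93 and 6.94 in hypoxic parental cells and 7.92, 7.79 and 7.98 in normoxic parental cells (interaction 1.88, SE 0.12). Every ESR2 array of ID2 lay above every parental array, and the gap was wider in hypoxia.

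Of 23 Wnt targets, 6 were positive and 3 negative, or 5 without replicate 2 of normoxic or of hypoxic parental cells. BAMBI, a decoy receptor of TGF-beta signalling, and AXIN2, a feedback inhibitor of Wnt, rose in ESR2 cells (0.95 and 0.66) and changed by -0.76 and -0.50 in parental cells. For AXIN2, 1 of 3 probe sets had a called interaction (1.17), and their average gave 0.35. SOX9, a factor of intestinal progenitors, rose 1.64-fold in ESR2 cells and 3.28-fold in parental cells (-1.0). Of 31 genes of epithelial junctions and keratins, 6 were positive and 7 negative. ESRP1, an epithelial splicing factor, had -1.06 and TJP1, of tight junctions, 0.56. Of 25 mesenchymal and motility genes, 6 were positive and 9 negative, and of 47 genes of respiratory complex I, 7 and 8. The assembly factors NDUFAF6 and NDUFAF5 had 1.04 and 0.73, and the subunit NDUFA5 -0.55. With probe sets averaged NDUFAF6 had 0.66.

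**Figure D3:**
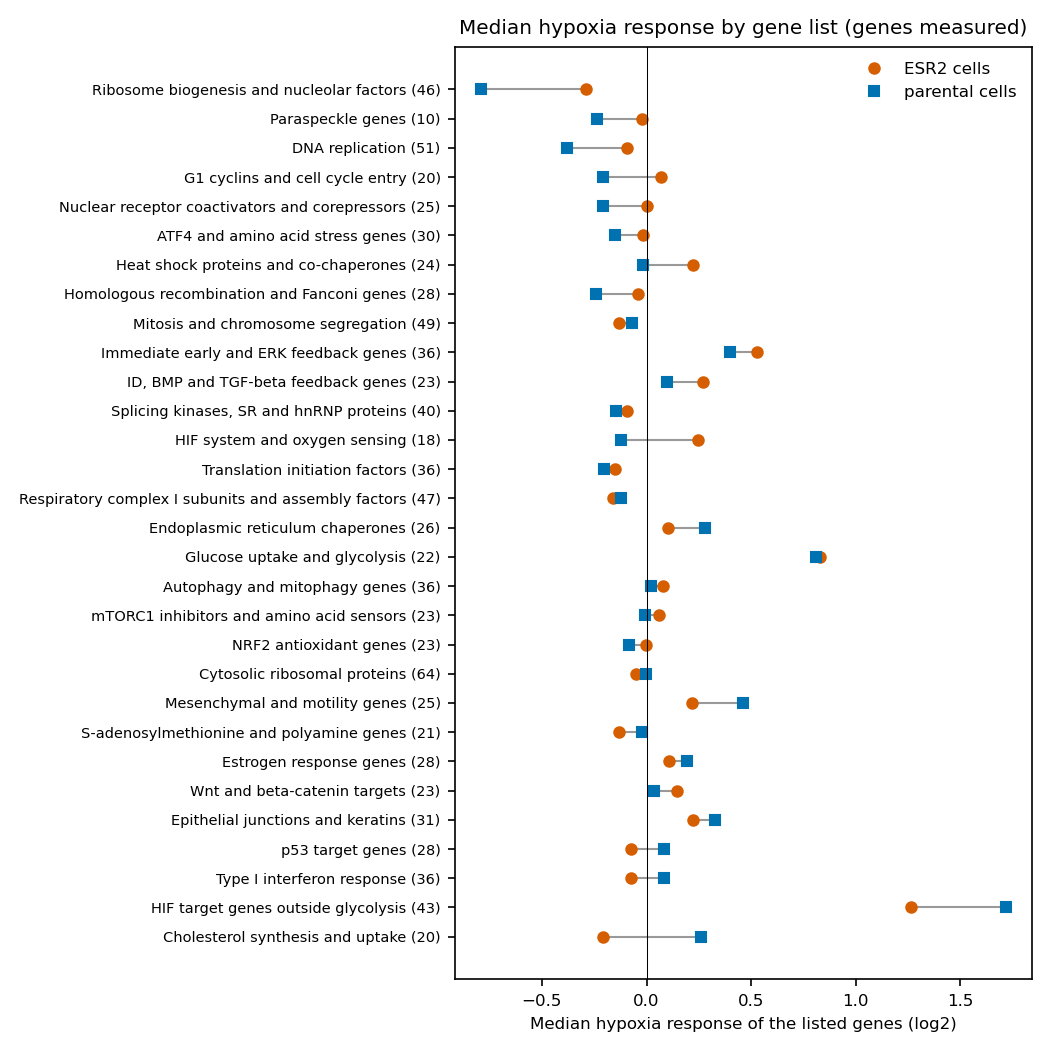
Median hypoxia response (log2, horizontal axis) of the measured genes of each list in ESR2 cells (circles) and in parental cells (squares), with lists ordered by their median interaction and the number of genes in brackets. The median of ribosome biogenesis lies at -0.29 in ESR2 cells and -0.79 in parental cells, and that of cholesterol synthesis at -0.21 and 0.26.

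The 12 arrays with estradiol were not used for the classes and give the same difference of differences once more. They share no array with it, but estradiol differs as well and the estimate of the spread is common, so they are no plain repeat. There the interaction was called for 7043 genes (38.6%), 3749 positive (20.6%) and 3294 negative (18.1%). Of the 81 reversed genes, 70 were called in the same direction and 0 in the opposite one. Of the 352 lost genes, 243 were called in the same direction and 18 in the opposite one, with 91 of 111 for lost rises and 152 of 241 for lost falls. Of the 494 smaller responses, 365 were called in the same direction and 22 in the opposite one. Gained and larger falls were called in the same direction for 17 of 21 and 25 of 29 genes, and gained and larger rises for 12 of 30 and 16 of 44, with 1 and 13 of these rises called in the opposite one. The 168 kept genes had no called interaction without estradiol. With it, 76 of them were called with the sign of that uncalled value and 28 with the opposite sign.

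The class itself is a stricter match. A 2-fold response was called with estradiol for 2.48% of genes upward and 5.3% downward in ESR2 cells, against 2.3% and 2.37% in parental cells. With estradiol 26 of the 241 lost falls were again lost, 49 were smaller, 44 kept and 80 no longer reached 2-fold in either kind of cell. Of the 111 lost rises, 24 were again lost and 22 reversed. Lists that leaned one way without estradiol differed in this too. With estradiol 3 of the HIF targets were positive and 30 negative (median -0.80), 1 and 12 of the cholesterol genes (-0.65), and 25 and 7 of the DNA replication genes (0.26). Nuclear receptor coregulators had 6 positive and 5 negative (0.09), and interferon genes 7 and 9 (0.17). Single genes show both outcomes: SLC35G1 had an interaction of 3.04 with and 2.63 without estradiol, DLX2 2.19 and 2.27, CXCL10 -2.11 and -2.21, and HIF1A -1.37 and -1.22. In contrast NCOA5 had 1.32 and 3.02, MAT2A 1.26 and 2.90, and SERPINH1 0.40, which was not called, and 2.00. The hypoxic ESR2 arrays with estradiol had a 3′ minus 5′ control difference of 3.42, 4.01 and 3.80, against 2.12, 2.00 and 2.19 in hypoxic ESR2 cells without estradiol, and its part in these differences was not tested. The interaction with estradiol minus that without was itself called for 5173 genes (28.4%), and at 2-fold or more it was positive for 228 (1.25%) and negative for 1085 (5.95%). Of the 139 genes named by rule, 79 were called, and 28 differed by 2-fold or more, 8 positive and 20 negative. Most of these 139 were chosen by their interaction without estradiol, so their share is not comparable with that of all genes.

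**Figure D4:**
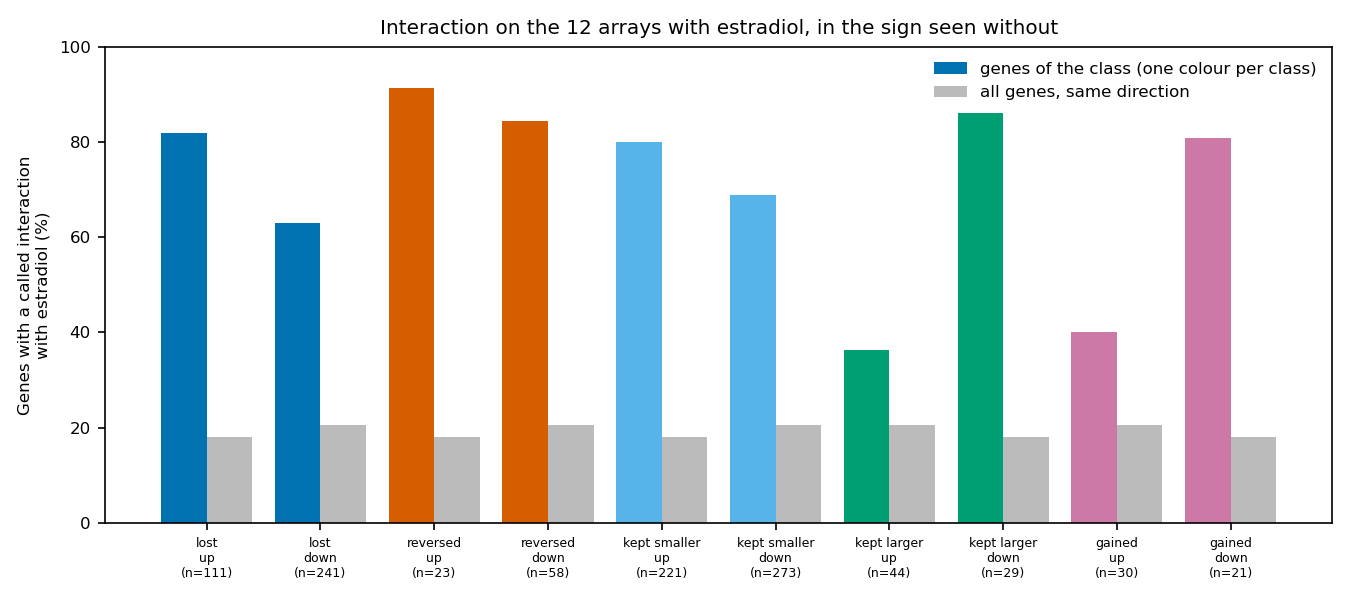
Percent of each class's genes whose interaction was called in the same direction on the 12 arrays with estradiol (coloured bars), beside the percent of all genes called in that direction (grey). The kept class is not drawn. Reversed rises (21 of 23) and larger falls (25 of 29) are highest, and larger rises (16 of 44) and gained rises (12 of 30) lowest.

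Gene span was set beside the interaction after the values had been seen. The median span in the RefSeq annotation was 91063 bases for lost rises, 62973 for smaller rises and 33889 for kept rises, against 17484 for lost falls, 17136 for smaller falls and 25680 over all genes. Of the 3166 genes of 100 kb or more, 10.3% had a positive and 21.4% a negative interaction, and of the 4848 genes under 10 kb, 14.9% and 10.0%. Without replicate 2 of normoxic parental cells these were 10.6% and 21.1% for the long and 13.9% and 11.8% for the short genes. In the parental response itself 26.4% of the long genes rose and 12.6% fell. On the arrays with estradiol 8.81% of long genes were positive and 36.3% negative, and of short genes 25.2% and 7.10%. The hypoxic ESR2 arrays of that setting had the high 3′ minus 5′ control differences of 3.42, 4.01 and 3.80. Their part in these shares was not tested. These shares describe genes that share arrays, and no test was made of them.

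**Figure D5:**
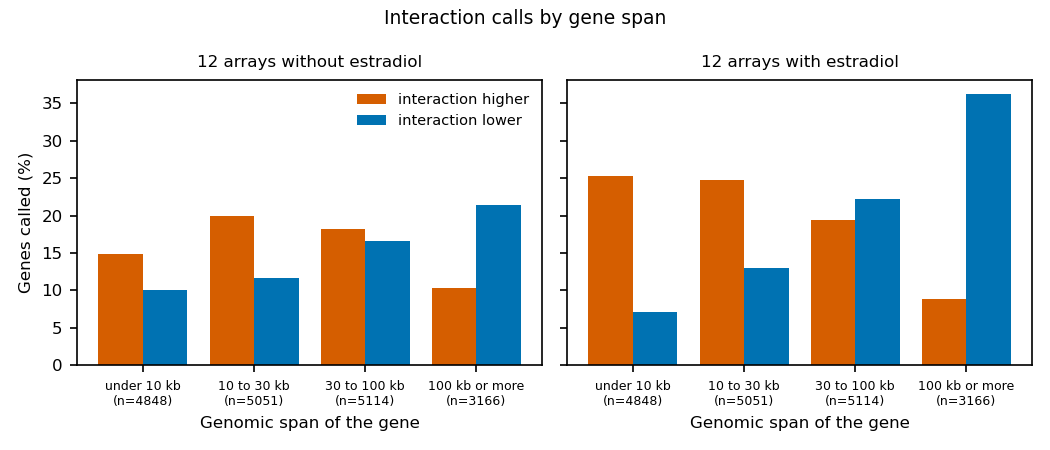
Percent of genes with a positive and a negative interaction, without estradiol (left) and with estradiol (right), in 4 bins of genomic span, as bars. Without estradiol the negative share is 10.0% under 10 kb and 21.4% at 100 kb or more.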

How the data were processed

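The authors deposited RMA values on the log2 scale for each probe set. RMA (background correction, quantile normalization, probe set summary) and affy are tools listed per the submitters' processing notes, with versions not given in the sources used here. RMA compresses changes of dim genes and removes much of a shift common to all genes. Of 49386 probe sets, 93 were controls, 45253 had 1 symbol in GEO's platform annotation, 1327 several and 2713 none. For each of 18239 genes the probe set brightest on average across the 24 arrays was taken (11822 had several), with no filter on dim genes, and 18179 matched RefSeq's GRCh38.p14 gene table by Entrez ID, which gave spans.

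All 24 arrays entered 1 model of 8 group means in limma 3.58.1 (lmFit, eBayes; R 4.3.3). It left 16 residual degrees of freedom. Adjustment was by Benjamini-Hochberg over all genes within a comparison, with a threshold of 0.05. A hypoxia response needed at least 2-fold as well. It was lost or gained where the call was in 1 kind of cell and the interaction was called, reversed where both were called in opposite directions, and kept, smaller or larger by the call of the interaction. The script was tested on simulated data. Figures were drawn with matplotlib 3.10.9. No 2 arrays held identical values.

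The members and the 30 gene lists were chosen with earlier results of these data known. Named genes, with a group mean of at least 6 and symbols other than LOC or LINC, are the 10 largest interactions in each direction and the 4 largest of each class and direction (for kept genes, by mean response). In addition 3 genes per list by smallest p, without that minimum, the genes nearest to the thresholds, and ESR2, HIF1A, EPAS1, ARNT, EGLN1, EGLN3, VHL and MYC are named. Alternatives were another quantile normalization, median centring, no dim genes, averaged probe sets, an intensity trend with a robust prior, the 12 arrays alone, a replicate block, the 3′ minus 5′ index as a covariate, array weights, leaving out each array, and 1.5-fold responses. The 3 alternatives for gene span were added after seeing the data. Of these, the shares without replicate 2 of normoxic parental cells are given above, and those with the index as a covariate or with averaged probe sets are not.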

Additional observations from a re-analysis of the deposited data

Results flagged for a closer look

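Of the 139 named genes, 79 had an interaction that differed between the arrays with and those without estradiol (28.4% of all genes did; limma, adjusted p under 0.05), and 28 differed by at least 2-fold as well. These are given as the interaction with estradiol minus that without, on the log2 scale. Most named genes were chosen by the size or p-value of their interaction without estradiol, which this difference subtracts. That choice favours values that shrink on other arrays, so the count is not comparable with the share over all genes. It was negative for 20 genes and positive for 8, and 0 named genes were called in both settings with opposite signs. The hypoxic ESR2 arrays with estradiol had a 3′ minus 5′ control difference of 3.42, 4.01 and 3.80, against 2.12, 2.00 and 2.19 without estradiol, and its part was not tested.

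Among genes with a positive interaction without estradiol, the difference was -1.90 for CCDC71, -1.78 for EP300, -1.70 for NCOA5, -1.64 for MAT2A and -1.45 for UNG. It was -1.44 for RRS1, -1.21 for DIDO1, -1.19 for SRSF5, -1.13 for AXIN2 and -1.01 for DNAJB1. With estradiol the hypoxia response of ESR2 cells was called for NCOA5 and MAT2A, at -1.35 and -1.77, against 0.05, which was not called, and -0.24 without it. The gained and larger rises PRAME (-1.78), SERPINH1 (-1.60), ARPC3 (-1.22) and SMAD6 (-1.16) had smaller interactions with estradiol, not called for PRAME, SERPINH1 and SMAD6.

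Some kept or negative interactions were more negative with estradiol. The difference was -1.78 for UST, -1.64 for CALML4, -1.50 for FBXO4, -1.33 for TMEFF1, -1.30 for LCORL and -1.18 for EGLN3. The 8 genes with a positive difference were MAL2 (1.97), CCNE2 (1.88), TP53I3 (1.76), UHMK1 (1.74), LARP1B (1.53), IL17RB (1.41), WFDC3 (1.31) and SAT1 (1.02). CCNE2 had an interaction of 3.74 with estradiol and 1.86 without, and MAL2 -0.59 and -2.57.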

How the results depend on the processing

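Of 139 named genes, 122 had a called interaction, and 120 of the 139 kept their call or lack of a call under all 21 settings. Called genes among the 120 also kept direction. Uncalled ones could change sign, as EGLN3 did (-0.05 to 0.11). Direction and call are not size: with averaged probe sets 35 of the 122 values shrank by over 1.5 times, DIDO1 to 0.36, OSMR to -0.28, HAS3 to 0.24 and TRIOBP to -0.57 among them. LARP1B, uncalled at 0.15, was -0.38 (adjusted p = 0.00104) with averaged probe sets. Averaging probe sets gave 708 responding genes, lost rises 58 and falls 124, reversed 10 and 28, kept 61 and 24, larger 25 and 14, gained 14 and 8; the interaction of the 352 lost genes was then called in the same direction for 338. With a 1.5-fold response there were 3743 responding genes, 387 lost rises and 758 lost falls, 118 and 226 reversed, 457 and 363 kept, 338 and 509 smaller, 101 and 75 larger, and 172 and 126 gained. The 3′ minus 5′ index as a covariate gave 34 gained falls, and array weights gave 12 and 3958 genes with a negative interaction. With only the 12 arrays without estradiol 4612 interactions were called, the fewest of any setting, 2550 positive and 2062 negative. Lost rises and falls were then 126 and 278, and kept ones 143 and 62. Leaving out 1 array gave 4997 to 5817 called interactions, 2691 to 3092 of them positive and 2172 to 2810 negative, and 1136 to 1323 responding genes. Lost rises ranged from 79 to 141 and falls from 182 to 291, reversed 17 to 30 and 47 to 63, kept 110 to 148 and 46 to 64, smaller 194 to 232 and 228 to 297, larger 34 to 55 and 23 to 31, gained 27 to 37 and 15 to 26. Without replicate 2 of normoxic parental cells 261 genes were lost, 243 of them among the 352, and the interaction of 350 of the 352 was still called in the same direction. Samples share only a replicate number: deviations of same-numbered arrays correlated at -0.288 to 0.287, over 0.1 in 4 of 18 pairs, and 4 of 12 arrays correlated best with their own number. The replicate block gave 5439 called interactions, 2939 positive and 2500 negative, 116 lost rises and 247 lost falls. Why settings moved a value was not tested. Every alternative listed above gave a value. Dim genes such as ESR2 are limited by signal near background.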
